A study of Mus musculus with 16 samples.

Results

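Inflammatory cytokines, chemokines and the feedback inhibitors of NF-kB and cytokine signalling were followed in mouse brown adipocytes in which lipolysis was switched on with a synthetic ligand. The 10 genes were taken from the count table by symbol: the cytokines Il6, Lif and Csf1, the chemokines Ccl2, Ccl7, Cxcl1 and Cxcl10, and the inhibitors Tnfaip3, Nfkbia and Socs3. They are 10 of the 20295 genes in the table, and all 10 passed the filter on low counts that left 12786 genes to test.

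The cells were BAT-LgT cells, mouse brown preadipocytes immortalized with the SV40 large T antigen, and were used on day 7 of differentiation. RNA sequencing was done on 16 samples in 6 groups. Cells were held for 1 h with vehicle, with 5 µM triacsin C, which inhibits the long-chain acyl-CoA synthetases (ACSL), or with 50 µM etomoxir, which inhibits the mitochondrial carnitine palmitoyltransferase CPT1. They were then kept for 3 h without or with SR-3420, a ligand of ABHD5 that releases this co-activator of the lipase ATGL. The labels give 10 µM SR-3420, whereas the study's text names a higher dose. Vehicle (replicates 2 and 3) and SR-3420 alone (replicates 1 and 3) had 2 samples each. The other 4 groups, each inhibitor without and with SR-3420, had 3 samples each. The total count per sample ran from 9452861 to 25670624. The study names no other cell type for these cultures.

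NF-kB is held in the cytoplasm by IkB proteins, and release of the dimer turns on cytokine and chemokine genes together with genes for its own inhibitors. Il6 and Lif encode cytokines that signal through the shared receptor subunit gp130 to STAT3, and Socs3 is a STAT3 target that feeds back on that receptor. Adipocytes themselves can secrete such cytokines, and in fat tissue CCL2 and CSF1 are known as signals to monocytes and macrophages.

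Markers of the labelled cell type were checked first. All 12 brown adipocyte markers were in the table, and Fabp4 was the most abundant of them in the samples, with a mean normalised count of 80493. Adipoq (28488), Cebpa (21697), Plin1 (16591), Cox8b (1172), Ppargc1a (630.1), Cidea (257) and Elovl3 (167) were all present. The defining brown fat gene Ucp1 was low, with a mean normalised count of 29.8 and raw counts from 5 to 57, and Dio2 was at or near 0 in every sample, with at most 2 raw counts. Normalised counts here are counts divided by DESeq2 size factors.

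The marker sums differed with SR-3420, and they are carried by a few abundant genes. The summed normalised count of the brown adipocyte markers was 193578 ± 12149 (SD, n = 2) with vehicle and 141883 ± 10787 (SD, n = 2) with SR-3420. With triacsin C it was 208196 ± 8148 (SD, n = 3), and with triacsin C and SR-3420 83225 ± 1549 (SD, n = 3). With etomoxir it was 191443 ± 10609 (SD, n = 3), and with etomoxir and SR-3420 106371 ± 28622 (SD, n = 3). In each arm the samples with SR-3420 were all below those without it. The sum of the 10 preadipocyte or fibroblast markers went the other way, and Col1a1 was the most abundant of these by its mean over the samples. It was 30672 ± 2499 (SD, n = 2) with vehicle against 62308 ± 13420.3 (SD, n = 2) with SR-3420. With triacsin C it was 40863 ± 5464 (SD, n = 3) without and 71522 ± 13526 (SD, n = 3) with SR-3420, and with etomoxir 29985 ± 9709 (SD, n = 3) without and 65629 ± 21386 (SD, n = 3) with SR-3420. By gene, edgeR called 2 of 11 tested brown adipocyte markers lower and 0 higher with SR-3420 alone, 6 lower and 1 higher with triacsin C, and 5 lower and 0 higher with etomoxir. Of 9 tested preadipocyte or fibroblast markers it called 1, 4 and 6 higher and 0 lower in the 3 arms. Of all 12786 genes tested, 2.79%, 19.7% and 12.8% were called lower in these arms and 4.75%, 17.3% and 12.5% higher. Of the 10 markers, Lum was at or near 0, with at most 12 raw counts. In bulk samples, fewer cells of a type and less RNA per cell cannot be told apart. The part of these shifts in the results below was not tested.

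**Figure D1:**
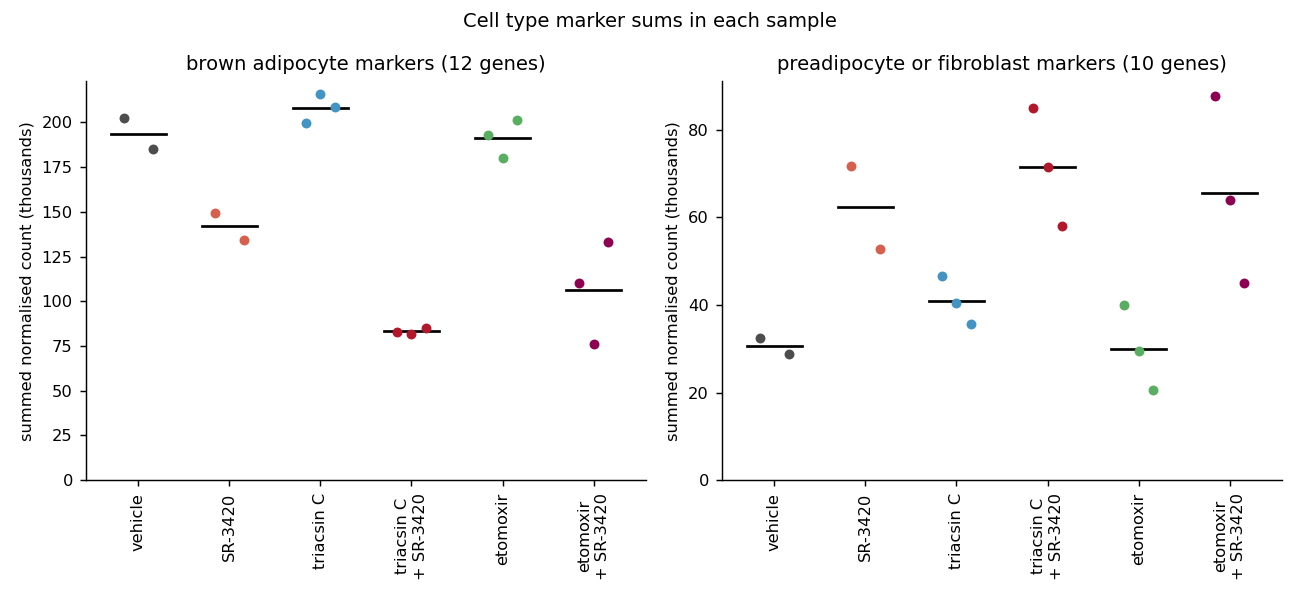
Summed normalised counts (linear axis from 0) of the brown adipocyte markers (left) and of the preadipocyte or fibroblast markers (right) in each of the 16 samples, with a bar at each group's mean. The 8 samples with SR-3420 sit below the others on the left and, in each arm, above their partners without it on the right.

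Macrophages are a usual source of these cytokines in fat tissue, and their markers were read too. Of 15 macrophage markers 14 were in the table, and 4 passed the filter on low counts. Emr1, which encodes F4/80, had at most 3 raw counts in any sample, Ptprc at most 16, C1qa at most 2, C1qb at most 4, Tyrobp at most 3 and Itgam at most 6. Cd68 was the most abundant, with a mean normalised count of 103 and up to 241 raw counts, followed by Cd14 with a mean of 86.2 and raw counts from 43 to 127. Csf1r had raw counts from 6 to 43. The summed normalised count of the list was 191 ± 28.2 (SD, n = 2) with vehicle and 229 ± 28 (SD, n = 2) with SR-3420. It was 361 ± 30.4 (SD, n = 3) with triacsin C and 218 ± 17.5 (SD, n = 3) with triacsin C and SR-3420, and 193 ± 22.2 (SD, n = 3) with etomoxir and 166 ± 36.3 (SD, n = 3) with etomoxir and SR-3420. The 8 lymphocyte markers summed to at most 34.5 normalised counts in any sample, with Cd79a the most abundant and the others at or near 0. The 8 endothelial markers summed to at most 119.7, with Vwf the most abundant, Pecam1 at most 13 raw counts and Cdh5 at most 10. The group means of this sum were 47.8 with vehicle and 71.8 with SR-3420, 54.5 and 95.8 with triacsin C, and 46.4 and 88.6 with etomoxir, without and with SR-3420. Of 2 endothelial markers tested, edgeR called 1 higher with SR-3420 in each of the triacsin C and etomoxir arms, and of 4 macrophage markers 2 and 1 lower. The 1 lymphocyte marker tested, Cd79a, was called lower in each of these arms. With triacsin C alone, edgeR called 1 of 4 macrophage markers and Cd79a higher, and 3 of 11 brown adipocyte markers lower. Of all genes, 4.77% were called higher and 6.94% lower with triacsin C alone. The part of these shifts in the results was not tested.

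In the mm9 coordinates of the table, Il6 lay on chr5:30339701-30346508, Cxcl1 on chr5:91320271-91322141 and Cxcl10 on chr5:92775665-92777915. Ccl2 (chr11:81849079-81850954) and Ccl7 (chr11:81859214-81861025) are neighbours that do not overlap, and Lif (chr11:4157571-4172517) and Socs3 (chr11:117827401-117830680) are on the same chromosome. Csf1 was on chr3:107543966-107563387, Tnfaip3 on chr10:18720717-18735216 and Nfkbia on chr12:56590396-56593634. Cxcl10 was the only member whose span overlapped that of another gene in the table, Art3.

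Promoter sequence was looked up because most of these genes moved together with SR-3420. RefSeq promoter windows (GRCm38.p6, 250 bases before to 50 after the start) were matched by symbol for 8 of the 10 members, with 9 windows in all, since Tnfaip3 had 2. Ccl2 and Ccl7 had none. The windows were searched on both strands for NF-kB letters (GGANNTTCC), STAT letters (TTCNNNGAA), AP-1 letters (TGACTCA or TGAGTCA) and the CRE (TGACGTCA). Of all 32851 windows of this length, 4.26% held the NF-kB letters, 8.3% the STAT letters, 5.2% the AP-1 letters and 1.79% the CRE. Among the members, 6 had NF-kB letters (Il6, Cxcl1, Cxcl10, Csf1, Tnfaip3 and Nfkbia), 4 had AP-1 letters (Il6, Lif, Cxcl10 and Tnfaip3), 1 had STAT letters (Socs3) and 0 had the CRE. A member was counted if any of its windows held the letters, whereas the shares above are of windows. The second window of Tnfaip3 held none of these letters. No match overlapped another. A match describes the letters only.

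Windows are printed for the 3 chemokine or cytokine genes and the inhibitor that held NF-kB letters and met a further condition. In these genes every sample with SR-3420 exceeded every sample without it. Those of Lif and Nfkbia are printed too. In the edgeR fit of group means, Lif had the largest called response of the members in each arm and Nfkbia had none. With replicate number as a block, edgeR called Nfkbia lower with SR-3420 and triacsin C than with triacsin C alone. The windows are chr5:30012864-30013163 (+ strand) for Il6, chr5:90890995-90891294 (+ strand) for Cxcl1, chr5:92348840-92349139 (- strand) for Cxcl10, chr10:19015361-19015660 (- strand) for Tnfaip3, chr11:4257318-4257617 (+ strand) for Lif and chr12:55492598-55492897 (- strand) for Nfkbia, all in GRCm38.p6. Each runs 5′ to 3′ in the gene's direction, and capitals mark the NF-kB and AP-1 letters.
Il6: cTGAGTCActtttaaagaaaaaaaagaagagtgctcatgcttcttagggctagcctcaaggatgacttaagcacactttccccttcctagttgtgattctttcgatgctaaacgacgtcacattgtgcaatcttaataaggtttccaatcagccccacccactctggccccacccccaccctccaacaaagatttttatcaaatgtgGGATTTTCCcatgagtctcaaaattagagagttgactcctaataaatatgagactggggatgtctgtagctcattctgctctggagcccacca
Cxcl1: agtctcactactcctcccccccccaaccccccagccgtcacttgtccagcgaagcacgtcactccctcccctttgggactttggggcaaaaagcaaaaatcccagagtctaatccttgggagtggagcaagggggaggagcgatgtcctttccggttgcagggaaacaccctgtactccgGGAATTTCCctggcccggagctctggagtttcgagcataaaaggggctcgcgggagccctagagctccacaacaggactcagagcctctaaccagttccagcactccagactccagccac
Cxcl10: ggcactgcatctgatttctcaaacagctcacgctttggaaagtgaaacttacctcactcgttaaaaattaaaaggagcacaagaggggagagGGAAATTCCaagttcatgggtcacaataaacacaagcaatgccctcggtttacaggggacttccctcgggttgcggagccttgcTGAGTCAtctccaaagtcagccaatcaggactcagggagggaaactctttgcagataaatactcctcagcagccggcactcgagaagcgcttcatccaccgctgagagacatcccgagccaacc
Tnfaip3: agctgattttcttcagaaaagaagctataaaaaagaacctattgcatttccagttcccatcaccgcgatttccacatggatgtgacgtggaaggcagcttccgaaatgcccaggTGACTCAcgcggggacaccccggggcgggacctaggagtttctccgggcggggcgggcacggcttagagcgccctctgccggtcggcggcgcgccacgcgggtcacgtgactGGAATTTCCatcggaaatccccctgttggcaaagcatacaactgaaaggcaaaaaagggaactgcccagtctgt
Lif: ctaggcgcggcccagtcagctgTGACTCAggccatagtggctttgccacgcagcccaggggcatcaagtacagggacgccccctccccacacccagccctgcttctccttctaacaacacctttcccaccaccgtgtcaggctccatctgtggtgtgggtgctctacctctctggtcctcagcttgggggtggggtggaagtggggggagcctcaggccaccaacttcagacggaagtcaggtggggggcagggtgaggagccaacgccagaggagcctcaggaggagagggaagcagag
Nfkbia: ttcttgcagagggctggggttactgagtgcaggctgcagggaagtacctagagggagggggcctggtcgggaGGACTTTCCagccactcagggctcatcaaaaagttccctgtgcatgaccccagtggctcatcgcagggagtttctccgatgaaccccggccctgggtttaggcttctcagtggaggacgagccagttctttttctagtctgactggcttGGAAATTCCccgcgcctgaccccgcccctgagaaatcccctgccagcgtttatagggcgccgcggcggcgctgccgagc
Counted from the start, with -1 the last base before it, the NF-kB letters began at -43 in Il6 (GGATTTTCC), -70 in Cxcl1 (GGAATTTCC), -158 in Cxcl10 (GGAAATTCC) and -24 in Tnfaip3 (GGAATTTCC). Nfkbia had 2 matches, GGACTTTCC at -178 and GGAAATTCC at -29. The AP-1 letters of Lif began at -228.

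**Figure D2:**
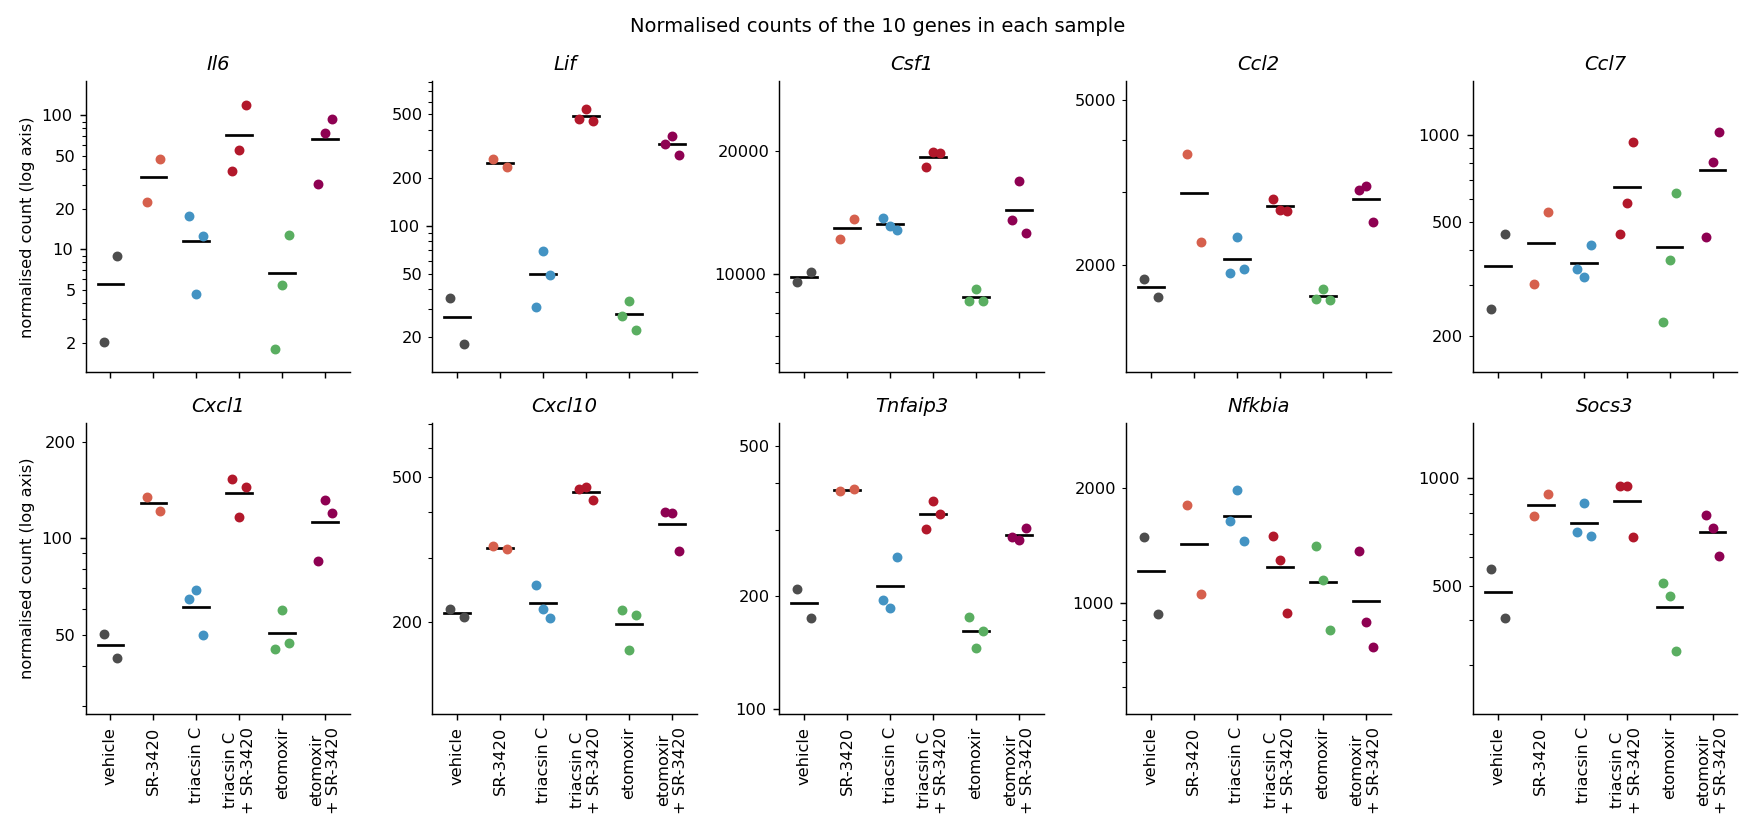
Normalised counts (log axis, a separate range for each gene) of the 10 genes in each of the 16 samples; points are samples and bars are group means. Il6, Lif, Cxcl1, Cxcl10 and Tnfaip3 were higher in all 8 samples with SR-3420 than in any of the 8 without, whereas the groups of Nfkbia overlapped in each arm.

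Il6, the founding cytokine of the gp130 family, was close to the limit of counting without SR-3420. Raw counts were 2 and 7 in the vehicle samples (replicates 2 and 3), and 28 and 54 with SR-3420 (replicates 1 and 3). In replicates 1, 2 and 3 they were 12, 5 and 12 with triacsin C and 43, 47 and 94 with triacsin C and SR-3420. They were 2, 5 and 11 with etomoxir and 55, 74 and 115 with etomoxir and SR-3420. Every sample with SR-3420 lay above every sample without it after normalisation, where the highest sample without reached 17.6 and the lowest with 22.7. The 3 groups without SR-3420 overlapped one another, as did the 3 groups with it.

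From the summed counts, Il6 was 6.76 times as high with SR-3420 as with vehicle (95% counting interval 3.39 to 15.3), 6.28 times as high with triacsin C and SR-3420 as with triacsin C (4.23 to 9.63), and 9.73 times as high with etomoxir and SR-3420 as with etomoxir (6.03 to 16.7). These intervals cover counting error only. By the quasi-likelihood test of edgeR with Benjamini-Hochberg adjustment, Il6 rose with SR-3420 in the presence of triacsin C by a log2 fold change of 2.65 ± 0.68 (SE; adjusted p = 0.008) and of etomoxir by 3.34 ± 0.72 (SE; adjusted p = 0.00443). Without an inhibitor the log2 fold change was 2.73 ± 0.95 (SE), and it missed the threshold in the same test with Benjamini-Hochberg adjustment (adjusted p = 0.103, edgeR). It was called by edgeR with replicate number as a block (2.93 ± 0.66, log2, SE; Benjamini-Hochberg adjusted p = 0.00681). Without replicate 3 of triacsin C with SR-3420 the value with triacsin C was 2.03, and without etomoxir replicate 3 the value with etomoxir was 4.18, and both calls held. Calls are taken at adjusted p under 0.05 over all 12786 genes.

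Lif, which encodes leukaemia inhibitory factor, had the clearest response. Its normalised counts were 35.3 and 18 in the vehicle samples and 261 and 235 with SR-3420. With triacsin C they were 30.8, 68.9 and 48.9, and with triacsin C and SR-3420 465, 539 and 454. With etomoxir they were 27.2, 33.7 and 22.3, and with etomoxir and SR-3420 326, 366 and 279.7. The samples with SR-3420 and those without were far apart, and among the former the 3 groups did not overlap, in the order SR-3420 alone, with etomoxir, with triacsin C. The rise with SR-3420 was 3.20 ± 0.35 on the log2 scale (SE; edgeR, Benjamini-Hochberg adjusted p = 0.000182) without an inhibitor, 3.25 ± 0.28 (SE; adjusted p = 4.89e-06) with triacsin C and 3.54 ± 0.29 (SE; adjusted p = 4.05e-06) with etomoxir. Without vehicle replicate 2 the first value was 3.80, and the call held. Lif with triacsin C and SR-3420 was 0.95 ± 0.28 (SE) above SR-3420 alone on that scale, which edgeR did not call after Benjamini-Hochberg adjustment (adjusted p = 0.0761). This difference was called by edgeR with replicate number as a block (0.81 ± 0.17, SE; Benjamini-Hochberg adjusted p = 0.00644).

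Csf1, which encodes the macrophage colony-stimulating factor, was abundant in every sample. It had 9546 and 10083 normalised counts with vehicle and 12182 and 13651 with SR-3420. It had 13745, 13119.7 and 12829.8 with triacsin C and 18359, 19895 and 19871 with triacsin C and SR-3420. With etomoxir it had 8552, 9155 and 8578, and with etomoxir and SR-3420 13575, 16868 and 12608. Each group with SR-3420 lay above its own partner, but the triacsin C samples already overlapped those of SR-3420 alone. The group means ran from etomoxir (8761) over vehicle (9815), SR-3420 (12917), triacsin C (13231) and etomoxir with SR-3420 (14350.3) to triacsin C with SR-3420 (19375). The groups of SR-3420 alone, triacsin C, and etomoxir with SR-3420 overlapped, and the other 3 groups overlapped no group.

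By edgeR with Benjamini-Hochberg adjustment, Csf1 rose with SR-3420 by 0.53 ± 0.13 (log2, SE; adjusted p = 0.00504) with triacsin C and by 0.72 ± 0.13 (log2, SE; adjusted p = 0.00119) with etomoxir. The value without an inhibitor was 0.41 ± 0.15 (log2, SE; edgeR, Benjamini-Hochberg adjusted p = 0.128). Fitted with replicate number as a block, it was called at 0.47 ± 0.14 (log2, SE; edgeR, Benjamini-Hochberg adjusted p = 0.0288). Csf1 was also 0.57 ± 0.14 higher (log2, SE; edgeR, Benjamini-Hochberg adjusted p = 0.0376) with triacsin C and SR-3420 than with SR-3420 alone. That call was lost when any of the 5 samples was left out, with log2 values from 0.49 without SR-3420 replicate 1 to 0.66 without SR-3420 replicate 3. Adjusted p by edgeR with Benjamini-Hochberg adjustment was then 0.372 without SR-3420 replicate 1, 0.0751 without SR-3420 replicate 3, and 0.0659, 0.0944 and 0.124 without replicates 1, 2 and 3 of triacsin C with SR-3420.

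Among the chemokines, Ccl2, which draws monocytes through CCR2, had 1853 and 1676 normalised counts with vehicle and 3711 and 2265 with SR-3420. It had 1906, 2330.1 and 1949.9 with triacsin C and 2888, 2721 and 2697 with triacsin C and SR-3420. With etomoxir it had 1656, 1749 and 1647, and with etomoxir and SR-3420 3033, 3106 and 2532. Each group with SR-3420 was above its partner, and SR-3420 replicate 1 stood above all other samples. The groups with SR-3420 overlapped one another.

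Ccl2 rose by 0.77 ± 0.20 on the log2 scale with SR-3420 alone (SE; edgeR, Benjamini-Hochberg adjusted p = 0.0306) and by 0.79 ± 0.16 with etomoxir (SE; adjusted p = 0.00321). With triacsin C the value was 0.40 ± 0.16 (SE; edgeR, Benjamini-Hochberg adjusted p = 0.0635). Fitted with replicate number as a block, this value was called at 0.41 ± 0.12 (SE; edgeR, Benjamini-Hochberg adjusted p = 0.0127). Without SR-3420 replicate 1, the Ccl2 value for SR-3420 alone was 0.38 (edgeR, Benjamini-Hochberg adjusted p = 0.333). It was 0.86 (edgeR, Benjamini-Hochberg adjusted p = 0.102) without vehicle replicate 2 and 0.70 (adjusted p = 0.191) without vehicle replicate 3.

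Ccl7, the neighbour of Ccl2 and a ligand of related receptors, spread widely among the samples of a group. Its normalised counts were 248 and 454 with vehicle and 303 and 539 with SR-3420. With triacsin C they were 343, 321 and 414, and with triacsin C and SR-3420 455, 579.9 and 946. With etomoxir they were 224, 369 and 632, and with etomoxir and SR-3420 444, 805 and 1030.5. Samples with the number 3 were the highest in all 6 groups, and the mean deviation of log2 values from the group means was -0.47 for samples numbered 1, -0.11 for number 2 and 0.49 for number 3. Il6 deviated alike (-0.52, -0.35 and 0.72), and Nfkbia the other way (0.29, 0.11 and -0.34). The Ccl7 groups with and without SR-3420 overlapped except with triacsin C. The log2 values were 0.28 ± 0.51 (SE) without an inhibitor, 0.86 ± 0.41 with triacsin C and 0.91 ± 0.41 with etomoxir, with Benjamini-Hochberg adjusted p of 0.798, 0.12 and 0.123 by edgeR in the fit of the 6 group means. With replicate number as a block, edgeR called Ccl7 higher with triacsin C (0.79 ± 0.18; Benjamini-Hochberg adjusted p = 0.00226) and etomoxir (0.94 ± 0.18; adjusted p = 0.000869). It was not called without an inhibitor (0.49 ± 0.24; edgeR with the block, Benjamini-Hochberg adjusted p = 0.171).

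Cxcl1, a neutrophil attractant and a standard NF-kB target, had 50.4 and 42.4 normalised counts with vehicle and 135 and 122 with SR-3420. It had 64.5, 68.9 and 49.9 with triacsin C and 153, 117 and 145 with triacsin C and SR-3420. With etomoxir it had 45.3, 59.9 and 47, and with etomoxir and SR-3420 84.9, 132 and 120.2. The groups without SR-3420 overlapped with their neighbours, as did those with it, and the 2 sets were apart. Cxcl1, whose promoter window is given above, rose by 1.48 ± 0.27 (log2, SE; edgeR, Benjamini-Hochberg adjusted p = 0.00458) without an inhibitor, by 1.16 ± 0.21 (adjusted p = 0.00101) with triacsin C and by 1.15 ± 0.22 (adjusted p = 0.00188) with etomoxir. Without vehicle replicate 3 the first value was 1.36 and missed the threshold (edgeR, Benjamini-Hochberg adjusted p = 0.0645).

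Cxcl10, which attracts T cells and is induced by interferons as well as by NF-kB, had 217 and 206 normalised counts with vehicle and 322 and 316 with SR-3420. It had 253, 217 and 205 with triacsin C and 462, 469.6 and 431 with triacsin C and SR-3420. With etomoxir it had 215, 167 and 208, and with etomoxir and SR-3420 401, 397 and 312. All samples with SR-3420 were above all samples without it, and the triacsin C samples with SR-3420 were above the other samples with it. The rise was 0.99 ± 0.14 (log2, SE; edgeR, Benjamini-Hochberg adjusted p = 0.000165) with triacsin C and 0.92 ± 0.14 (adjusted p = 0.000533) with etomoxir. Without an inhibitor it was 0.61 ± 0.18 (log2, SE) and just missed the threshold (edgeR, Benjamini-Hochberg adjusted p = 0.0512). Fitted with replicate number as a block, it was called at 0.56 ± 0.16 (log2, SE; edgeR, Benjamini-Hochberg adjusted p = 0.027).

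Reads of Cxcl10 and of the overlapping Art3 could be shared, since the use of strand in counting was not stated, so both are given. Art3 had 363 and 449 normalised counts with vehicle and 276 and 273 with SR-3420, and it fell by 1.05 ± 0.15 (log2, SE; edgeR, Benjamini-Hochberg adjusted p = 0.000136) with triacsin C and by 0.88 ± 0.15 (adjusted p = 0.00078) with etomoxir. Cxcl10 and Art3 moved in opposite directions.

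Tnfaip3 encodes A20, a ubiquitin-editing enzyme that shuts off NF-kB signalling. Its normalised counts were 209 and 174 with vehicle and 379 and 385 with SR-3420. With triacsin C they were 195, 186 and 254, and with triacsin C and SR-3420 301, 357 and 330.2. With etomoxir they were 176, 145 and 161, and with etomoxir and SR-3420 287, 282 and 303. The samples with and without SR-3420 were apart. The highest group was SR-3420 alone, and the groups with triacsin C and etomoxir lay below it and overlapped each other. Tnfaip3 rose by 1.01 ± 0.18 (log2, SE; edgeR, Benjamini-Hochberg adjusted p = 0.00433) without an inhibitor, by 0.62 ± 0.15 (adjusted p = 0.00511) with triacsin C and by 0.86 ± 0.15 (adjusted p = 0.00102) with etomoxir. Without vehicle replicate 3 the first value was 0.88 (edgeR, Benjamini-Hochberg adjusted p = 0.067).

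Socs3, which binds gp130 and JAK and limits STAT3 signalling, had 557 and 405 normalised counts with vehicle and 785 and 900.2 with SR-3420. It had 709, 849.7 and 688 with triacsin C and 952, 952 and 683 with triacsin C and SR-3420. With etomoxir it had 509.9, 469 and 328, and with etomoxir and SR-3420 790.0, 725 and 607. The groups with and without SR-3420 did not overlap except with triacsin C, where the level without SR-3420 was already above both vehicle samples. Socs3 rose with SR-3420 in the presence of etomoxir by 0.70 ± 0.20 (log2, SE; edgeR, Benjamini-Hochberg adjusted p = 0.0201). The value was 0.82 ± 0.24 (adjusted p = 0.0578) without an inhibitor and 0.18 ± 0.20 (adjusted p = 0.502) with triacsin C, by edgeR with Benjamini-Hochberg adjustment. A fit with replicate number as a block called the value without an inhibitor (0.90 ± 0.18; edgeR, Benjamini-Hochberg adjusted p = 0.00312). It did not call that with triacsin C (0.17 ± 0.14; adjusted p = 0.301). The call with etomoxir was lost without etomoxir replicate 3 (0.52, edgeR, Benjamini-Hochberg adjusted p = 0.0619), and without replicate 1 (0.62, 0.0576) or 2 (0.67, 0.0671) of etomoxir with SR-3420.

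Nfkbia encodes IkBa, the inhibitor that NF-kB itself induces. It had 1483 and 935 normalised counts with vehicle and 1803 and 1055 with SR-3420. It had 1633, 1976 and 1452 with triacsin C and 1495, 1296 and 938 with triacsin C and SR-3420. With etomoxir it had 1410.1, 1149 and 850.4, and with etomoxir and SR-3420 1370.2, 888 and 765. The groups overlapped in every arm. The log2 values with SR-3420 were 0.25 ± 0.35 (SE) without an inhibitor, -0.46 ± 0.29 with triacsin C and -0.17 ± 0.29 with etomoxir, with 95% intervals of -0.50 to 1.01, -1.08 to 0.15 and -0.79 to 0.44. In the fit of the 6 group means none passed the quasi-likelihood test of edgeR with Benjamini-Hochberg adjustment (adjusted p = 0.736, 0.222 and 0.71). With replicate number as a block, edgeR called Nfkbia lower with triacsin C (-0.49 ± 0.13, log2, SE; Benjamini-Hochberg adjusted p = 0.00613). It was not called in the other arms. Its window printed above has 2 matches to the NF-kB letters.

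The members were chosen with earlier results of these data known, so their counts beside those of all genes are a description. Counted over the members, 4 of 10 rose with SR-3420 alone (Lif, Ccl2, Cxcl1 and Tnfaip3), where 4.75% of all genes tested were called higher, and 0 fell, where 2.79% were called lower. Without vehicle replicate 3, 1 member was called, and calls over all genes were 306 instead of 964. With triacsin C, 6 of 10 rose with SR-3420 (Il6, Lif, Cxcl1, Cxcl10, Csf1 and Tnfaip3), against 17.3% of all genes. With etomoxir, 8 of 10 rose (all but Ccl7 and Nfkbia), against 12.5% of all genes. In these fits of the 6 group means by edgeR no member was called lower with triacsin C or with etomoxir, where 19.7% and 12.8% of all genes were. At an unadjusted p under 0.05 the members past the threshold were 8, 7 and 9 in the 3 arms, in either direction, as were 2788, 5947 and 4758 of the 12786 genes. DESeq2 called 8, 7 and 8 members after adjustment, and 1604, 5251 and 3868 of all genes. Groups did not overlap, with SR-3420 higher, for 8 of 10 members without an inhibitor (21.9% of all genes), 8 of 10 with triacsin C (28.5%) and 8 of 10 with etomoxir (15.8%). For 5 members all 8 samples with SR-3420 lay above all 8 without, which was so for 6.23% of the genes tested. The median log2 value of the members was 0.80, 0.74 and 0.89 in the 3 arms, where that of all genes was -0.00, 0.02 and 0.01. Each arm has its own control samples, so the 3 arms share none in these comparisons. Their p-values are not independent, since the spread was taken from all 16 samples in 1 fit. The labels do not say which cultures the replicates came from, although the study describes independent experiments, so the p-values measure the spread between these samples.

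**Figure D3:**
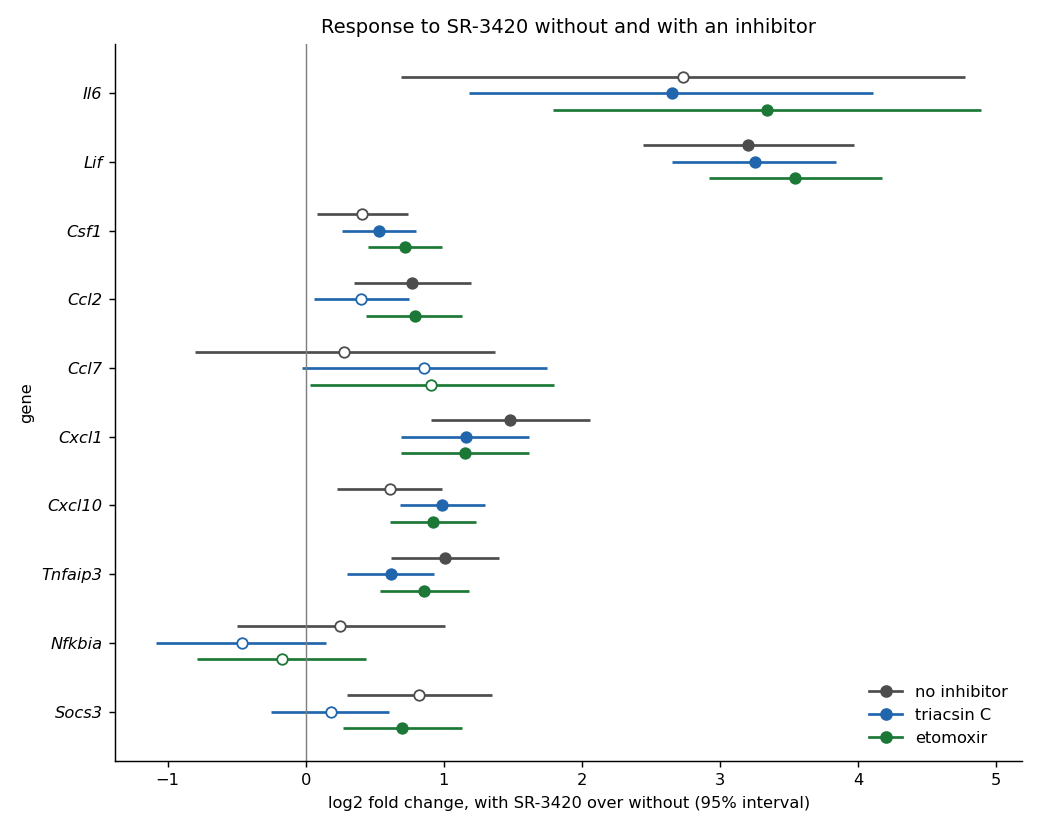
Log2 fold change with SR-3420 over without, for each of the 10 genes, without an inhibitor (grey), with triacsin C (blue) and with etomoxir (green); lines are 95% intervals from edgeR, and filled points have a Benjamini-Hochberg adjusted p under 0.05. Lif lies between 3.20 and 3.54 in the 3 arms, and the intervals of Nfkbia include 0 in each.

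The inhibitors by themselves were compared with vehicle to see whether blocking acyl-CoA synthesis or mitochondrial uptake moved these genes. Triacsin C alone gave 0 called members by edgeR, where 11.7% of all genes were called (4.77% higher and 6.94% lower). At an unadjusted p under 0.05 there were 3 members, where 3103 of the 12786 genes passed. DESeq2 called 2 members, and 2035 of all genes. The nearest to the threshold were Csf1 at 0.45 ± 0.14 (log2, SE; edgeR, Benjamini-Hochberg adjusted p = 0.0552), Socs3 at 0.66 ± 0.23 (adjusted p = 0.079) and Lif at 0.91 ± 0.34 (adjusted p = 0.105). All 10 log2 values were above 0, as were 56.9% of those of all genes, and the median of the members was 0.43 against 0.07 for all genes. These values are from the fit of group means. A fit with replicate number as a block called Csf1, Socs3 and Lif higher (edgeR, Benjamini-Hochberg adjusted p = 0.0127, 0.00907 and 0.0125). It called 12% of all genes higher and 12.1% lower. Etomoxir alone gave 0 called members by edgeR, where 0.0235% of all genes were called. At an unadjusted p under 0.05 there were 0 members, where 283 of the 12786 genes passed. DESeq2 called 0 members, and 17 of all genes. The median of the members was -0.08 against 0.01 for all genes. These comparisons share the vehicle samples with each other and with that of SR-3420 alone.

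On top of SR-3420, triacsin C raised 1 of 10 members, Csf1, with the values and the dependence on single samples given above, where 1.02% of all genes were higher. Etomoxir on top of SR-3420 gave 0 called members by edgeR, with 0.00782% of all genes called. DESeq2 called 0 members, and 90 of all genes. At an unadjusted p under 0.05 there was 1 member, where 1279 of the 12786 genes passed. That member was Tnfaip3 at -0.41 ± 0.16 (log2, SE; edgeR, Benjamini-Hochberg adjusted p = 0.45). Both comparisons share the SR-3420 samples.

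Whether the inhibitors changed the size of the response was tested as the difference between responses. For triacsin C minus no inhibitor edgeR called 0 members, against 2.51% of all genes. For etomoxir minus no inhibitor it called 0 members, against 0% of all genes. For triacsin C minus etomoxir it called 0 members, against 2.29% of all genes. At an unadjusted p under 0.05 there were 0 members in each, where 2130, 307 and 1596 of the 12786 genes passed in this order. DESeq2 called 0 members in each, and 832, 9 and 682 of all genes. The intervals were wide enough to hold sizeable differences. For Lif, triacsin C minus no inhibitor was 0.04 with a 95% interval of -0.96 to 1.04, and etomoxir minus no inhibitor 0.34 with -0.62 to 1.30. For Il6 the intervals were -2.30 to 2.15 and -2.18 to 3.41. Cxcl1 gave -0.33 in both, each with an interval of -1.06 to 0.40. The narrowest were those of Csf1, at 0.12 (-0.31 to 0.54) and 0.31 (-0.12 to 0.73). Socs3 was farthest from 0 relative to its error with triacsin C, at -0.64 (-1.32 to 0.03; edgeR, Benjamini-Hochberg adjusted p = 0.326). Nfkbia gave -0.72 (-1.69 to 0.26) and Tnfaip3 -0.40 (-0.89 to 0.10) for the same difference. These values are from the fit of group means. A fit with replicate number as a block called this difference for Socs3, at -0.73 ± 0.22 (log2, SE; edgeR, Benjamini-Hochberg adjusted p = 0.0453). It called 13.1% of all genes in either direction.

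**Figure D4:**
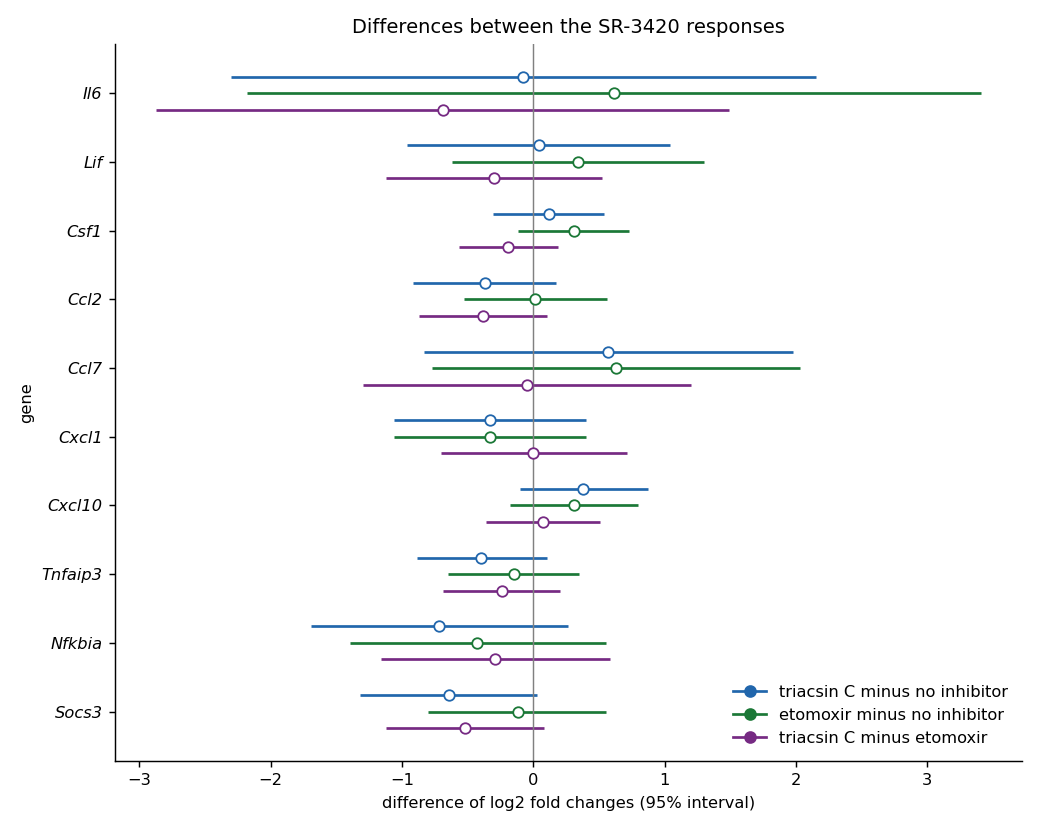
Difference between SR-3420 responses (log2 fold changes) for each of the 10 genes: triacsin C minus no inhibitor (blue), etomoxir minus no inhibitor (green) and triacsin C minus etomoxir (purple), with 95% intervals from edgeR. All points are open, since 0 members had a Benjamini-Hochberg adjusted p under 0.05 in the fit of group means, and each interval includes 0.

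Lists of related genes were read next, and the share of list genes called was not tested against that of all genes. These lists too were chosen with earlier results of these data known. Of all genes, 7.54%, 36.9% and 25.3% were called in either direction in the 3 arms, in the order no inhibitor, triacsin C, etomoxir. At an unadjusted p under 0.05, 2788, 5947 and 4758 genes passed, and DESeq2 called 1604, 5251 and 3868. Of 26 genes of gp130 cytokine signalling, 25 were tested. With SR-3420, 3 rose and 1 fell without an inhibitor, 7 rose and 1 fell with triacsin C, and 7 rose and 2 fell with etomoxir. These are 4, 8 and 9 of 25. Il11 and Clcf1, which encode gp130 cytokines as Il6 and Lif do, were among those that rose in each arm. By edgeR with Benjamini-Hochberg adjustment, Clcf1 rose by 2.19 ± 0.28 (log2, SE; adjusted p = 0.000502), 2.28 ± 0.23 (adjusted p = 1.30e-05) and 2.55 ± 0.23 (adjusted p = 8.74e-06) in the 3 arms, given in the order no inhibitor, triacsin C, etomoxir. Il11 rose by 2.69 ± 0.55, 3.21 ± 0.42 and 3.07 ± 0.45 (log2, SE), and Osmr, the oncostatin M receptor, by 1.18 ± 0.33, 1.68 ± 0.28 and 1.19 ± 0.27. Pim1, a kinase gene downstream of STATs, rose by 1.62 ± 0.28 with triacsin C and 1.66 ± 0.28 with etomoxir. The median over the list was 0.15, 0.27 and 0.18, against -0.00, 0.02 and 0.01 over all genes. Stat3 was lower with triacsin C alone, at -0.45 ± 0.13 (log2, SE; edgeR, Benjamini-Hochberg adjusted p = 0.0405), and so was Il6ra, the IL-6 receptor gene, at -0.58 ± 0.16 (adjusted p = 0.0344).

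Classical NF-kB target genes were a further list. Of 24 listed, 19 were tested. Without an inhibitor 6 rose and 0 fell with SR-3420 (9 at an unadjusted p under 0.05 and 7 by DESeq2, in either direction). With triacsin C 10 rose and 1 fell, and with etomoxir 10 rose and 1 fell. Of all genes, 4.75%, 17.3% and 12.5% were called higher in these arms. The median of the list was 0.72, 0.57 and 0.72. Ptgs2, which encodes cyclooxygenase-2, rose by 2.20 ± 0.36, 3.02 ± 0.31 and 2.81 ± 0.30 (log2, SE), and Ier3, an early response gene, by 1.69 ± 0.20, 1.43 ± 0.16 and 2.09 ± 0.16. Plaur, the urokinase receptor, rose by 1.90 ± 0.26, 1.71 ± 0.21 and 1.91 ± 0.21, and Ptx3, a secreted pentraxin, by 1.25 ± 0.17, 1.33 ± 0.14 and 1.65 ± 0.14. Sod2, the mitochondrial superoxide dismutase, fell by 1.12 ± 0.14 with triacsin C and by 0.65 ± 0.14 with etomoxir. The Sod2 response was lower with triacsin C than without an inhibitor (edgeR, Benjamini-Hochberg adjusted p = 0.0355). Triacsin C alone raised 6 of the 19 and lowered 0, where 4.77% of all genes were called higher and 6.94% lower. At an unadjusted p under 0.05 there were 9, and DESeq2 called 8, where 3103 and 2035 of all genes passed. Among the 6 were Ier3, raised by 1.37 ± 0.19, Gadd45b by 1.24 ± 0.29, Ptx3 by 0.92 ± 0.16 and Plaur by 0.81 ± 0.24. Marker calls with triacsin C alone are given above. On top of SR-3420, triacsin C raised 4 and lowered 1, where 1.02% of all genes were called higher and 3.55% lower, and Ptgs2 rose by 1.90 ± 0.34.

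**Figure D5:**
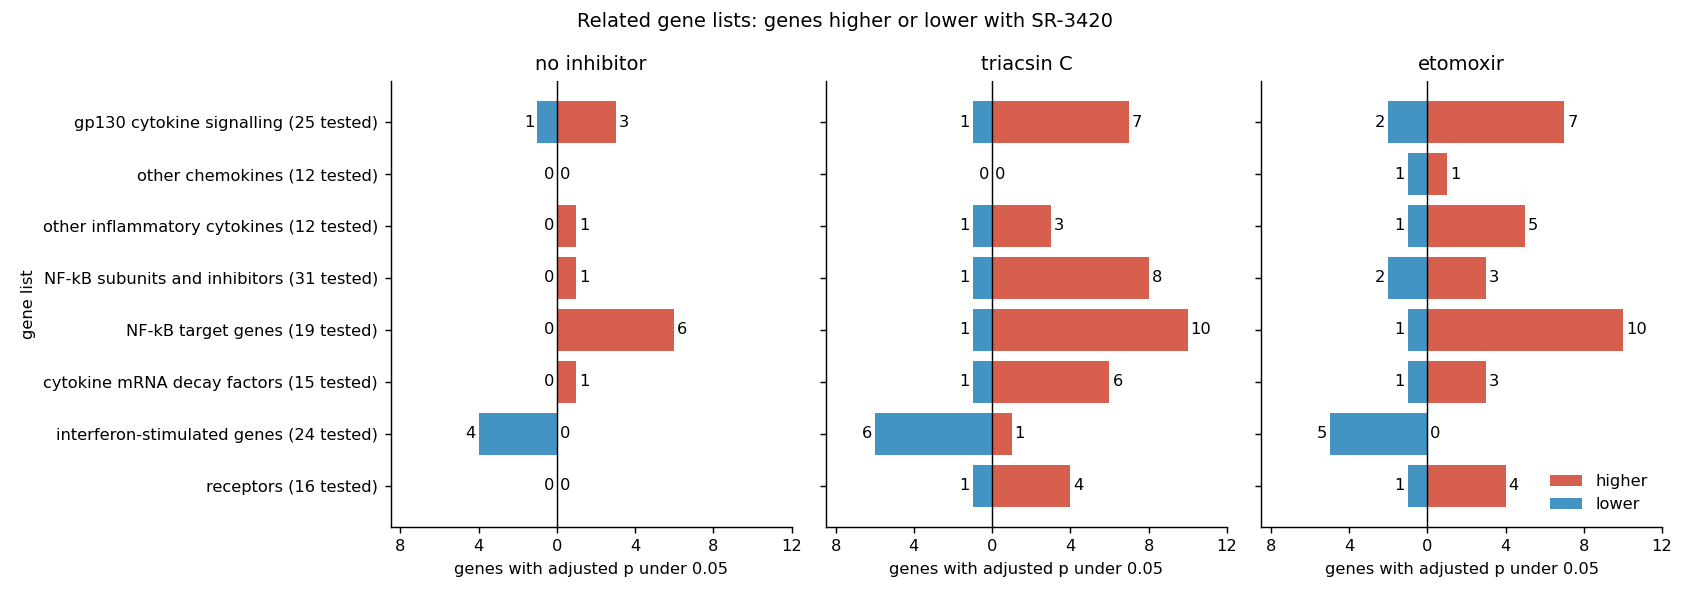
Number of genes called higher (red, to the right) or lower (blue, to the left) with SR-3420 by edgeR with Benjamini-Hochberg adjusted p under 0.05 in 8 lists of related genes and the 3 arms; the number tested stands beside each list's name. NF-kB target genes gave 6, 10 and 10 higher calls, and interferon-stimulated genes 4, 6 and 5 lower calls.

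The NF-kB machinery was read in the same way. Of 34 listed subunits, kinases and inhibitors, 31 were tested, and 1 rose with SR-3420 alone, Nfkbiz, which encodes IkB-zeta, by 0.91 ± 0.14 (log2, SE; edgeR, Benjamini-Hochberg adjusted p = 0.00138). None fell by edgeR, with 7 at an unadjusted p under 0.05 and 4 by DESeq2 in either direction. With triacsin C 8 rose and 1 fell, and with etomoxir 3 rose and 2 fell. These are 1, 9 and 5 of 31 genes, where 7.54%, 36.9% and 25.3% of all genes were called. Nfkb1, which encodes p50 and its precursor, rose by 0.76 ± 0.15 with triacsin C, and Ripk2 by 0.57 ± 0.19 with triacsin C and 0.70 ± 0.19 with etomoxir. Ikbkg, which encodes the kinase subunit NEMO, fell by 0.87 ± 0.14 and by 1.08 ± 0.14. Rela, the most abundant of the list, had 0.36 ± 0.22 (log2, SE; edgeR, Benjamini-Hochberg adjusted p = 0.364) with SR-3420 alone. Triacsin C alone lowered Tnip1, which encodes a partner of A20, by 1.35 ± 0.21 and Tnfaip8 by 1.20 ± 0.17, and raised Nfkbiz by 0.51 ± 0.13.

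Other chemokines were mostly below the filter on low counts. Of 30 listed, 29 were in the table and 12 were tested, and edgeR called 0 with SR-3420 alone and 0 with triacsin C, with 1 at an unadjusted p under 0.05 in each and 0 and 1 by DESeq2. With etomoxir 1 rose and 1 fell, Ccl11 and Ccl6, both below the count set for naming and named after their values were seen. Cxcl12, the most abundant, had log2 values of 0.32 ± 0.27, -0.09 ± 0.22 and 0.43 ± 0.22 (SE). Of 25 other inflammatory cytokines 12 were tested. With SR-3420 alone 1 rose, Spp1 (osteopontin), and 0 fell, with 2 at an unadjusted p under 0.05 and 1 by DESeq2. With triacsin C 3 rose and 1 fell, and with etomoxir 5 rose and 1 fell, where 36.9% and 25.3% of all genes were called. Spp1 rose by 1.55 ± 0.16, 1.87 ± 0.13 and 1.67 ± 0.13 (log2, SE), and Il33 by 2.15 ± 0.50 with triacsin C and 1.94 ± 0.48 with etomoxir. Il1rn, the IL-1 receptor antagonist, rose by 0.93 ± 0.32 with etomoxir.

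Factors that set the lifetime of cytokine mRNAs were read as well, and all 15 were tested. Zfp36, which encodes tristetraprolin, a protein that speeds decay of AU-rich mRNAs, rose by 1.55 ± 0.22 (log2, SE; edgeR, Benjamini-Hochberg adjusted p = 0.000905), 1.74 ± 0.18 (adjusted p = 1.40e-05) and 1.85 ± 0.18 (adjusted p = 1.66e-05) in the 3 arms. It was the 1 called gene of the list without an inhibitor, where 0 fell, 5 passed at an unadjusted p under 0.05 and DESeq2 called 2. With triacsin C 6 rose and 1 fell, and with etomoxir 3 rose and 1 fell, where 17.3% and 12.5% of all genes were called higher. The gene that fell was Auh in both, by 0.77 ± 0.17 and by 0.74 ± 0.17 on the log2 scale.

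Interferon-stimulated genes were read as well. Of 25 listed, 24 were tested, and 0 rose and 4 fell with SR-3420 alone (4 at an unadjusted p under 0.05 and 4 by DESeq2). With triacsin C 1 rose and 6 fell, and with etomoxir 0 rose and 5 fell (7 at an unadjusted p under 0.05 and 5 by DESeq2). Of all genes, 2.79%, 19.7% and 12.8% were called lower in the 3 arms. Gbp3, an interferon-induced GTPase, fell by 1.28 ± 0.32 without an inhibitor and by 1.01 ± 0.26 with etomoxir, and Stat2, an interferon signalling gene, by 0.84 ± 0.18 without an inhibitor, by 0.98 ± 0.15 with triacsin C and by 0.52 ± 0.15 with etomoxir (log2, SE). The medians of the list were -0.41, -0.54 and -0.04. Cxcl10, itself induced by interferons, was higher in the same samples.

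Of 25 receptors of the members and of TNF, IL-1 and Toll ligands, 16 were tested. With SR-3420 alone edgeR called 0, with 1 at an unadjusted p under 0.05 and 0 by DESeq2. With triacsin C 4 rose and 1 fell, and with etomoxir 4 rose and 1 fell, where 36.9% and 25.3% of all genes were called. Il1r1 rose by 1.34 ± 0.34 and 1.26 ± 0.34 and Tlr2 by 0.62 ± 0.22 and 1.11 ± 0.22 (log2, SE). Il6st, which encodes gp130 and was the most abundant of the list, had 0.15 ± 0.15 with SR-3420 alone and rose by 0.40 ± 0.12 with etomoxir. Il6st with 4133 and Osmr with 1031 mean normalised counts were expressed in the same cultures as Lif and Il6. With etomoxir alone edgeR called 0 genes in each of the 8 lists. At an unadjusted p under 0.05 there was 1 gene in the NF-kB machinery and 1 among the receptors, and DESeq2 called 0 in each list. Of all genes, 283 passed at that unadjusted p and DESeq2 called 17.

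Levels were compared between genes per kilobase of counted length. Averaged over the 16 samples, Csf1 (3182 normalised counts per kb) and Ccl2 (2925) were among the top 1.92% and 2.13% of the genes tested. They were followed by Nfkbia (811), Ccl7 (634), Cxcl10 (273), Socs3 (250.3), Cxcl1 (94.7), Tnfaip3 (58.3), Lif (50) and Il6 (31.5). The order differed between groups, and with triacsin C and SR-3420 Lif (121) was above Tnfaip3 (74.5). With vehicle, Lif had 6.64 ± 3.05 (SD, n = 2) and Csf1 2350.3 ± 91 (SD, n = 2) normalised counts per kb, and with triacsin C and SR-3420 Lif had 121 ± 11.5 (SD, n = 3) and Csf1 4639.6 ± 211 (SD, n = 3).

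The genes whose profile over the 16 samples was most like that of a member were found by Pearson's r of log2 normalised counts, as a description. The points are the same 16 libraries for every gene, and samples with and without SR-3420 are apart in several of them. Lif was most like Spry2 (r = 1.00), Hbegf (r = 1.00) and Clcf1 (r = 0.99). Ccl7 was most like Haus6, Prkg2 and Zdhhc20 (r = 0.99 each). For Csf1 they were Hsp90ab1 (r = 0.98), Ftsj3 (r = 0.97) and Myl12a (r = 0.97). Cxcl10 was most like Thbd, Plat and Epb4.1l3 (r = 0.98 each), and Nfkbia most like Rbm38, Gpx1 and Paf1 (r = 0.98 each). Among the members, r was 0.95 between Lif and Cxcl1 and 0.33 between the neighbours Ccl2 and Ccl7.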

How the data were processed

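RNA sequencing counts per gene were used as the authors deposited them. Per the labels and the study, the authors aligned reads with STAR 2.4.2a to mm9, kept 1 read per position and length with HOMER, and counted reads over genes with iRNA-seq. Total counts were 9452861 to 25670624 per sample, and low counts limit the precision for Il6. The 12786 genes passing edgeR's filter were fitted in R 4.3.3 with edgeR 4.0.16 (TMM scaling, 6 group means, quasi-likelihood test, Benjamini-Hochberg adjustment over all tested genes, threshold 0.05). Size factors and an alternative test came from DESeq2 1.42.0, with limma 3.58.1 loaded by edgeR. Python 3.11.15, pandas 2.3.3 and matplotlib 3.10.9 were used for promoter windows and figures. Alternatives were tool, scaling, filter, samples fitted, replicate block, left-out samples and a log2 limit of 1. For each list and comparison, up to 4 called genes per direction could be named, by size of log2 value. A mean normalised count of at least 50 was required. Not all of these genes are named, and a named gene's value may also be given in a further arm. The most abundant gene could be named where fewer than 2 were called. Genes most like a member are named for the 5 members with the highest r. The members and lists were chosen with earlier results of these data known.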

Additional observations from a re-analysis of the deposited data

How the results depend on the processing

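The 19 called log2 values of members kept their direction under every alternative. They all kept their call with DESeq2, with DESeq2 size factors in edgeR and with the replicate block, as did 18 without the filter and 13 with only the compared groups fitted. With at least 10 counts in every sample Il6 was not tested and the other 17 kept theirs. Leaving out 1 sample kept 92 of the values tried and lost the call of 13, where fewer samples were fitted and a lone sample of a group was assumed to vary like the other groups.

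The number of members called with SR-3420 alone, 4, was 8 with DESeq2, 1 with only the compared groups, 8 with the block and 1 to 4 with 1 sample left out. For triacsin C alone, 0 became 2 with DESeq2, 1 with at least 10 counts, 3 with the block and 0 to 1 with 1 sample left out. SR-3420 with triacsin C gave 3 instead of 6, and with etomoxir 3 instead of 8, at a log2 size of at least 1, and 9 each with the block. Triacsin C on top of SR-3420 gave 3 with DESeq2, 0 without the filter, 0 with only the compared groups, 4 with the block, 0 at a log2 size of at least 1 and 0 to 0 with 1 sample left out, instead of 1. With the block, etomoxir on top of SR-3420 gave 2 instead of 0 (Ccl7 higher and Nfkbia lower), and triacsin C minus no inhibitor 1 instead of 0 (Socs3, lower). By edgeR with the block and Benjamini-Hochberg adjustment, Nfkbia was called lower with SR-3420 and triacsin C (-0.49 ± 0.13, log2, SE; adjusted p = 0.00613), and Ccl7 higher with triacsin C (0.79 ± 0.18; adjusted p = 0.00226) and with etomoxir (0.94 ± 0.18; adjusted p = 0.000869). The cause was not tested.

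Over all genes, calls with SR-3420 alone were 964, and 1604 with DESeq2, 46 with only the compared groups, 2438 with the block, 430 at a log2 size of at least 1 and 306 to 504 with 1 sample left out. Triacsin C alone gave 1497, and 3072 with the block, 705 at that log2 size and 702 to 1089 with 1 sample left out. Etomoxir alone gave 3, and 17 with DESeq2, 0 with only the compared groups, 6 with the block and 0 to 3 with 1 sample left out. SR-3420 with triacsin C gave 4722, and 7185 with the block and 1893 at that log2 size. SR-3420 with etomoxir gave 3234, and 1205 with only the compared groups, 5776 with the block, 1136 at that log2 size and 1989 to 3198 with 1 sample left out. Triacsin C on top of SR-3420 gave 585, and 1230 with DESeq2, 78 with only the compared groups, 3008 with the block, 230 at that log2 size and 54 to 401 with 1 sample left out. Etomoxir on top of SR-3420 gave 1, and 90 with DESeq2, 1838 with the block, 0 without the filter, with only the compared groups and at that log2 size, and 0 to 12 with 1 sample left out. The response differences gave 321, 0 and 293, and 832, 9 and 682 with DESeq2 and 1669, 3 and 1055 with the block. Triacsin C minus no inhibitor gave 163 without the filter and 53 to 179 with 1 sample left out, and triacsin C minus etomoxir 178 at that log2 size and 145 to 262 with 1 sample left out. With the block, genes called higher and lower with SR-3420 (order: no inhibitor, triacsin C, etomoxir) were 6 and 2, 12 and 3, and 9 and 4 for gp130 signalling, 7 and 2, 15 and 2, and 11 and 3 for the NF-kB machinery, and 8 and 0, 10 and 3, and 11 and 1 for NF-kB targets. They were 0 and 0, 2 and 0, and 3 and 1 for other chemokines, 3 and 0, 6 and 1, and 7 and 2 for other cytokines, 2 and 1, 8 and 1, and 6 and 1 for mRNA decay factors, 0 and 7, 1 and 10, and 3 and 8 for interferon-stimulated genes, and 1 and 0, 6 and 3, and 4 and 4 for receptors.

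Samples shared only a replicate number. Of 35 same-number pairs 27 correlated over 0.1, with r from -0.28 to 0.80, and 11 of 16 samples correlated best with their own number, a hint from the data and not the design. Of 60 group levels 1 moved by more than the spread between replicates under TMM scaling, Tnfaip3 with SR-3420 alone, from 382 to 386.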
